A study of Rattus norvegicus with 4 samples.

Results

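Kcnip1 Tshr Ca3 adipocyte nuclei are a minority of the fat cell nuclei in rat brown and perivascular adipose tissue, described here across 4 single-nucleus RNA libraries. A barcode was counted as a member when it held at least 1000 unique molecular identifiers (UMIs, each 1 counted RNA molecule) and 500 detected genes, at least 5 UMIs over the adipocyte genes Adipoq, Plin1, Lipe, Pparg, Cidec and Acsl1, and no UMI of Cyyr1, Ptprb, Pdgfra, Ptprc, Myh11, Cdh19 or Mki67, which mark other or dividing cells. It also had to hold at least 4 UMIs, with at least 3 genes detected, among Kcnip1, Tshr, Clmp, Ca3 and Kcnn3. Of 81383 adipocyte nuclei, 6164 met the rule, out of 114183 barcodes that passed the depth limits and 125904 barcodes in all. The members were thus chosen by the measured counts of these 18 genes, and the 5 choosing genes had themselves come from earlier groupings of the same nuclei. Every comparison of levels between members and the other adipocytes is therefore a description without a test, and tests are given only between the tissues.

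The nuclei came from naive male Dahl salt-sensitive rats (SS/HsdMcwiCrl, 16 weeks old), from thoracic aorta perivascular adipose tissue (taPVAT, 2 libraries) and subscapular brown adipose tissue (BAT, 2 libraries), all snap frozen. The labels name no allele or treatment that sets the groups apart. They also do not say whether 1 rat gave both tissues or how many rats went into a library, so p-values measure only the spread between these libraries, which may be technical. Values for the 4 libraries are given throughout in the order taPVAT replicate 1, taPVAT replicate 2, BAT replicate 1 and BAT replicate 2.

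Brown adipocytes burn fatty acids in mitochondria uncoupled by Ucp1, white adipocytes store triglyceride and secrete leptin, and both secrete adiponectin (Adipoq). Fat around the rodent thoracic aorta resembles brown fat and lies against the vessel wall. The choosing genes have differing known roles. Kcnip1 encodes a calcium-binding partner of Kv4 potassium channels, Kcnn3 a calcium-activated potassium channel, Tshr the receptor for thyroid-stimulating hormone, Clmp an adhesion molecule of the CAR family and Ca3 a carbonic anhydrase abundant in adipocytes and muscle.

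Members held a median of 3011, 3216, 3290 and 2875 UMIs, against 3175, 4950, 4026 and 2811 in the other adipocytes of the same libraries. Their median mitochondrial share was 7.82%, 9.32%, 8.51% and 10.1%, against 7.03%, 6.15%, 6.64% and 9.93%, so it was higher in members in each library. The libraries totalled between 63654436 and 158140959 UMIs, and a single gene, AC134224.3, took 13.5% to 16.5% of member UMIs. Across all pairs of libraries 1589 barcode sequences occurred in both, 658 of them as adipocytes in both and 4 as members in both. No doublet caller was run, so a barcode with RNA of more than 1 nucleus could be a member.

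The 5 choosing genes were high in members of all 4 libraries. Levels are UMIs per 1000000 UMIs (CPM), summed over all nuclei of a class in a library. Kcnip1 stood at 1649, 2366, 2360.0 and 2094 CPM in members and at 20.4, 9.78, 23.97 and 29.6 CPM in the other adipocytes. Tshr stood at 505, 1036, 599 and 908 CPM against 43.4, 97.6, 30.1 and 71.9 CPM. No member level of these genes overlapped a level in the other adipocytes, which the rule itself brings about. Ca3 stood at 1574, 1318, 1632 and 959.6 CPM against 111, 45.4, 98.9 and 103 CPM. Clmp ranged over 495 to 968 CPM in members and 6.37 to 10.5 CPM in the others, and Kcnn3 over 277 to 378 CPM and 4.65 to 7.43 CPM.

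Most members lay far inside the UMI threshold, but many were at the minimum of 3 genes detected. The median member held 15, 22, 19 and 15 UMIs over the 5 genes, and 64.3%, 81.8%, 79.0% and 65.0% of members held at least 12. Members just inside, with 4 or 5 UMIs, made up 7.82%, 3.14%, 4.34% and 6.98%. By genes detected, 703, 169, 805 and 557 members held just 3 of the 5, and 22.7%, 37.6%, 24.4% and 23.5% held all 5. Just outside lay 856, 518, 746 and 615 adipocyte nuclei that held at least 4 UMIs over fewer than 3 of the genes, and 60.4% to 63.2% of the other adipocytes held none. A further 565, 158, 612 and 551 barcodes failed only through a UMI of an excluding gene. There were 757 nuclei of other cell types, with a median of 1563 UMIs. They held at least 4 UMIs over the excluding genes other than Mki67 and under 5 adipocyte UMIs. Of them 0 passed the choosing threshold, which allows a share of up to 0.396% by counting error alone. They were picked for little adipocyte RNA and were shallower by median than members. The count therefore cannot show how often background RNA or mixed barcodes pass, and nothing is read from it.

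**Figure D1:**
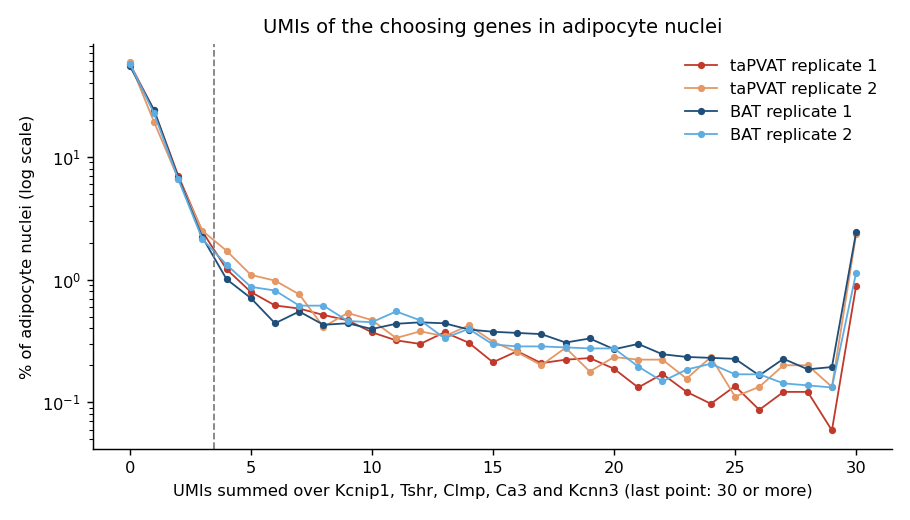
Share of adipocyte nuclei (vertical axis, percent, log scale) by the number of UMIs summed over the 5 choosing genes (horizontal axis, last point 30 or more), 1 line per library, with a dashed line at the threshold of 4 UMIs. Most nuclei hold no UMI of these genes, and the median member, at 15 to 22 UMIs, lies well to the right of the threshold.

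Each choosing gene was also measured in nuclei picked by the other 4 alone (at least 3 UMIs over at least 2 genes), so that the gene itself had no part in the choice of a nucleus. Kcnip1 was 49.1, 116, 66.3 and 43.7 times higher in such nuclei than in the remaining adipocytes. Clmp was 35.4, 70.0, 45.1 and 35.5 times higher. The genes thus occurred in the same barcodes in each library, as a description, since the 5 were proposed together. The ratios were 29.5, 26.7, 35.6 and 25.9 for Kcnn3, 12.8, 23.9, 15.1 and 8.31 for Ca3, and 8.99, 9.59, 16.2 and 10.8 for Tshr. Tshr was also high just outside the rule in taPVAT replicate 2, at 932 CPM in the 518 nuclei with at least 4 UMIs over fewer than 3 genes. Nnat, a leading gene of the members, stood at 17.6 CPM in those nuclei and at 302 CPM in members of that library with at least 12 UMIs.

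The defining adipocyte genes were used by the rule, so their levels describe the members and are no independent check of the label. Adipoq stood at 595, 542, 645 and 378 CPM in members and 294, 213, 347 and 259 CPM in the other adipocytes. Cidec, which enlarges lipid droplets, stood at 754, 489, 879.6 and 453 CPM against 357, 251, 468 and 348 CPM. Both were higher in members in 4 of 4 libraries. Pparg and Lipe, the adipogenic nuclear receptor and hormone-sensitive lipase, had median log2 ratios of members over others of 0.03 and 0.05.

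Members made up 6.14%, 7.09%, 9.13% and 7.96% of adipocyte nuclei, from 1764 of 28753, 636 of 8975, 2259 of 24746 and 1505 of 18909 nuclei. The 95% Wilson intervals were 5.86% to 6.42%, 6.57% to 7.64%, 8.78% to 9.49% and 7.58% to 8.35%. Both BAT libraries were above both taPVAT libraries, at 8.54% ± 0.827 against 6.61% ± 0.673 (SD, n = 2 each), a difference of -1.93 percentage points. The exact two-sided permutation test over libraries gave p = 0.333, the smallest that 2 against 2 libraries allow, so a difference between the tissues was not established. With every barcode thinned to 1000 UMIs before the rule was applied, the shares were 3.07%, 4.26%, 4.58% and 3.82%, and the tissues overlapped. Among nuclei with at most 5% mitochondrial UMIs they were 6.53%, 3.59%, 7.83% and 15.6%.

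Outside the 18 genes of the rule, 5979 genes reached a mean of 20 CPM in members or in the other adipocytes. Of these, 313 (5.23%) were at least 1.5 times higher in members in each of the 4 libraries, and 101 (1.69%) at least 1.5 times lower. The choice of members bears on every gene of the same nuclei, so nothing is read from these percentages. Over all 5979 genes the median log2 ratio was -0.01, computed with a pseudocount of 1 CPM as all log2 ratios here are. By any amount, 1726 of the 5979 genes were higher in 4 of 4 libraries and 1753 lower, and counts by any amount below are read against these.

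Otulinl, a relative of the deubiquitinase OTULIN, stood farthest above the other adipocytes, at 62.5, 286, 98.3 and 254 CPM against 1.99, 2.8003, 2.14 and 6.39 CPM. Nnat, which encodes the membrane proteolipid neuronatin, stood at 909.9, 271, 711 and 273 CPM against 32.5, 14.4, 27.97 and 19.9 CPM. Anxa1, the phospholipid-binding annexin A1, stood at 814, 179, 268 and 142 CPM against 48.6, 8.65, 9.87 and 10.4 CPM. None of these member levels overlapped a level in the other adipocytes. These genes were named for their ratios in the same sums. The share of all genes without such overlap is not given, so nothing is read from it. Nnat was higher in both replicate 1 libraries, while Otulinl was higher in members of both replicate 2 libraries. The median ratios over the libraries were 33.1 for Otulinl, 20.9 for Nnat and 17.5 for Anxa1.

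The other leading genes ranged over secreted factors, adaptors and transporters. Apcdd1, a Wnt inhibitor, was at 33.5 to 48.03 CPM in members and 0.542 to 1.26 CPM in others. Slc7a10, a neutral amino acid transporter known as a white adipocyte surface marker, was at 19.1 to 45.95 CPM against 0.7904 to 1.48 CPM. Both were at 0 UMIs in other-type nuclei of all 4 libraries, as was B3galt1, a galactosyltransferase. Chrdl1, which binds bone morphogenetic proteins, had a median ratio of 13.9, and Stac, an adaptor protein, 27.0. Prr5l, a partner of the kinase complex mTORC2, had 19.6 and Ccnd2, a cyclin, 14.7. Crispld2, Astn2, B3galt1, Hpd, Chn2 and AABR07052441.1 had median ratios from 11.7 to 17.3. Some leading genes were not low outside adipocytes: other-type nuclei held 19.4 to 121 CPM of Otulinl, 11.7 to 362 CPM of Crispld2 and 171 to 279 CPM of Chn2.

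**Figure D2:**
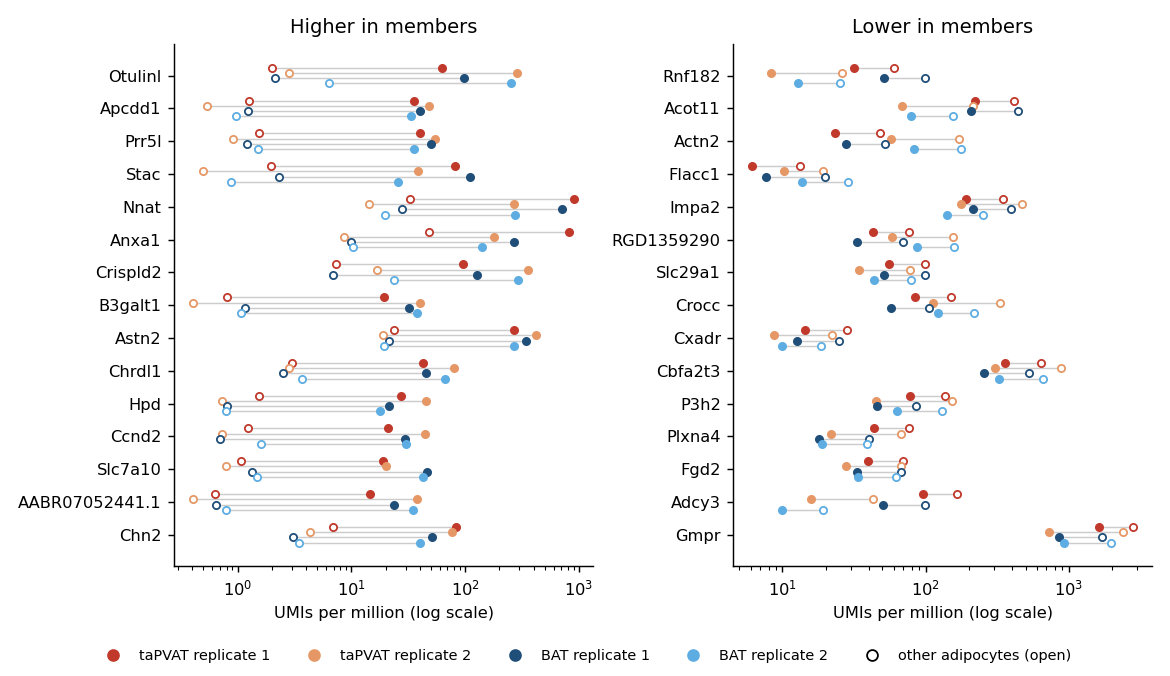
Level of the 15 genes set highest (left) and the 15 set lowest (right) in members (horizontal axes, CPM, log scale), with filled points for members and open points for the other adipocytes of the same library, coloured by library. Filled points lie far to the right of open ones in the left panel, and to their left by a smaller distance in the right panel.

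Genes of white adipocytes and adipokines lay mostly on the higher side. Of 13 listed genes with at least 20 CPM, 7 were at least 1.5 times higher in every library and 2 lower, and the list's median log2 ratio was 1.26. Lep, which encodes leptin, was at 95.96, 282, 41.2 and 209 CPM in members and 4.49, 45.8, 6.2001 and 82.005 CPM in the others. Retn, which encodes resistin, was at 614, 776, 859.6 and 757 CPM against 244, 316, 276 and 414 CPM. Lep was lowest in the replicate 1 libraries in both classes, so that members of BAT replicate 1 lay below the other adipocytes of both replicate 2 libraries. Sncg, a synuclein, had a median log2 ratio of 3.27, Nrip1, a nuclear receptor corepressor known to repress brown fat genes, 2.27, Cyp2e1, a cytochrome P450, 2.44, and Agt, which encodes angiotensinogen, 1.26. Nnat was the remaining higher gene. The 2 lower genes were Npr3, the clearance receptor for natriuretic peptides, at 888, 511, 330.1 and 602 CPM against 1516, 1446, 616 and 1023 CPM, and Nampt, an enzyme of NAD synthesis (-0.67).

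Among 13 nuclear receptor genes and steroid targets, 4 were at least 1.5 times higher in all libraries and 3 at least 1.5 times lower, and by any amount 7 were higher and 4 lower (1726 and 1753 of 5979 over all genes), with a median log2 ratio of 0.24. Esr1, an estrogen receptor, was at 745, 331, 864 and 289.9 CPM against 76.9, 44.5, 193 and 110.1 CPM. Its member levels did not overlap those of the other adipocytes, from which nothing is read, since the share over all genes is not given. Fkbp5 and Tsc22d3, both induced by glucocorticoids, had median log2 ratios of 2.31 and 1.01, while the glucocorticoid receptor Nr3c1 had one of 0.30. The orphan receptors Nr4a1, Nr4a2 and Nr4a3 were the 3 genes lower by 1.5 times, with -0.85, -0.84 and -0.86.

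Among 5 other hormone receptors at 20 CPM, 2 were higher by 1.5 times in all libraries and none lower, and by any amount 3 were higher and 1 lower. Ptger3, a prostaglandin E receptor, was at 159.6, 181, 148 and 147 CPM against 15.95, 11.7, 20.5 and 15.5 CPM. Ghr, the growth hormone receptor, was at 2998.9, 4214, 3561 and 3845 CPM against 1547, 1451, 2079.6 and 1969 CPM. The 1 lower by any amount was Adra1a, an adrenergic receptor, with a median log2 ratio of -0.79.

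Growth and storage genes held a few large differences among many small ones. Igf1, an insulin-like growth factor, was at 218, 781, 248 and 513 CPM against 94.8, 32.2, 32.4 and 42.4 CPM. With Grb10, an adaptor that dampens insulin receptor signals (median log2 ratio 2.85), it made up the 2 genes higher by 1.5 times in all libraries among 17 of insulin and IGF signalling. Pdk4, which restrains glucose oxidation, was the 1 gene of that list lower by as much (-0.95). Gpat3, an enzyme of triglyceride synthesis, was at 166, 405, 162 and 303 CPM against 14.97, 57.3, 11.9 and 110.5 CPM. It was the 1 of 9 genes of that pathway to differ by 1.5 times in all libraries. Among 11 genes of lipolysis and the lipid droplet there was none, and their median log2 ratio was 0.06. Of 17 adipogenic transcription factors 2 were higher by 1.5 times in all libraries, Klf15 (0.86) and Tcf7l2 (0.89), and of 7 genes of fatty acid uptake none differed so far.

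Genes of heat production lay on the lower side. Of 19 thermogenic genes, 0 were higher and 6 lower by 1.5 times in every library, and 15 were lower by any amount (1753 of 5979 over all genes), with a median log2 ratio of -0.62. In nuclei with at most 5% mitochondrial UMIs none of the 6 was lower by 1.5 times in every library. Ucp1 was at 599, 239, 864 and 373 CPM in members and 957, 461, 1585 and 680.1 CPM in the other adipocytes. Gk, glycerol kinase, was at 1577, 1261, 1108 and 2125 CPM against 2639.8, 3703, 2031 and 3947 CPM. Under the mitochondrial limit Ucp1 was at 719.8, 282, 1213 and 516 CPM against 929.8, 409, 1564 and 669 CPM. Both genes were lower within each library, while their ranges over libraries overlapped between the classes. The other 4 were Ppargc1a, a coactivator of mitochondrial genes (-0.77), Cidea, a lipid droplet protein (-0.75), Pank1, of coenzyme A synthesis (-0.89), and Slc27a2, a fatty acid transporter, at 119, 47.3, 113 and 71.1 CPM against 192, 155, 216 and 149.96 CPM. Adrb3, the adrenergic receptor of fat cells, had a median log2 ratio of 0.05, and Ebf2, a brown fat transcription factor, -0.29.

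Ucp1 RNA was also found in nuclei that should lack it, and its source there was not tested. Nuclei of other types held 451, 294, 449 and 291 CPM of Ucp1. Thinned to 1000 UMIs, 37.6%, 18.6%, 42.3% and 24.3% of members had a Ucp1 UMI, against 38.01%, 29.7%, 39.1% and 26.99% of other-type nuclei and 58.3%, 34.9%, 72.8% and 44.4% of the other adipocytes. The members' share was below that of other types in 3 libraries and above it in BAT replicate 1, while by CPM members were below other types in taPVAT replicate 2 only. No order between members and other types is therefore read from either. Without thinning the shares were 69.1%, 51.6%, 71.9% and 54.02% in members, 87.7%, 78.97%, 95.04% and 74.6% in other adipocytes and 51.5%, 41.8%, 53.3% and 39.9% in other types, whose median depths were 1387, 1800, 1562 and 1513 UMIs. For Lep, thinned shares were 9.52%, 23.7%, 4.96% and 19.3% in members against 0%, 1.26%, 1.63% and 2.45% in other types, and unthinned ones 24.1%, 56.1%, 13.99% and 47.4% against 0.585%, 2.93%, 1.63% and 4.29%. The Lep share of members was above that of other types in 4 of 4 libraries. Other types were chosen for under 5 adipocyte UMIs, so no order is read from the Lep shares either.

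Oxidative genes lay lower by smaller amounts. Of 20 genes of fatty acid oxidation 3 were at least 1.5 times lower in every library, and 18 were lower by any amount, with a median log2 ratio of -0.41. Ppara, the nuclear receptor of fatty acid oxidation, was at 1003, 438, 1362 and 648 CPM against 1589, 1057, 2659 and 1164 CPM. Cpt1b, which carries fatty acids into mitochondria, and Slc25a20, the carnitine carrier, both had a median log2 ratio of -0.72. Of 22 nuclear genes of oxidative phosphorylation and the citrate cycle none differed by 1.5 times in all libraries, and 17 were lower in all, with a median of -0.21. These genes summed to 6312, 4956, 6306 and 6004 CPM in members and to 7385, 6567, 7547 and 7591 CPM in the other adipocytes. In other-type nuclei they summed to 7819, 5078, 8097 and 7208 CPM. The listed fatty acid oxidation genes summed to 6916, 4139, 7771 and 4817 CPM in members and to 9171, 6602, 11742.5 and 6661 CPM in the other adipocytes. Their sums were 5144, 3092, 5014 and 3973 CPM in other types. The median mitochondrial share of other types was 17.1%, 19.0%, 18.3% and 19.7%, above that of members, so no order between these classes is read. The 15 genes set lowest included Acot11, an acyl-CoA thioesterase, at 223, 68.5, 208 and 79.1 CPM against 418, 214, 441 and 156 CPM, and Gmpr, GMP reductase, at 1639.7, 727, 849.9 and 929 CPM against 2836, 2382, 1714 and 1987 CPM. Rnf182, Actn2, Flacc1, Impa2, RGD1359290, Slc29a1, Crocc, Cxadr, Cbfa2t3, P3h2, Plxna4, Fgd2 and Adcy3 made up the rest, with median ratios between 1.81 and 2.08 times lower.

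**Figure D3:**
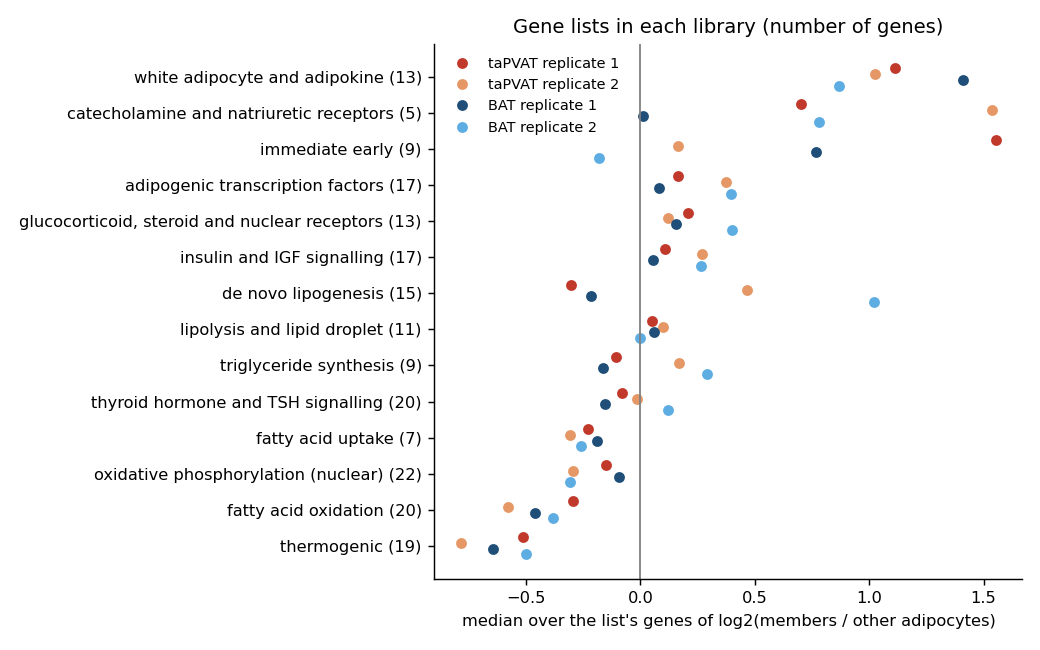
Median log2 ratio of members over other adipocytes (horizontal axis) for the gene lists named on the vertical axis, with the number of genes at 20 CPM in brackets and 1 point per library. The white adipocyte list lies to the right of 0 and the thermogenic list to the left in all 4 libraries, while the lipogenesis list lies on both sides.

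Levels in members depended on the depth of the nuclei. In members with at least 1000 and under 2000 UMIs, Gk stood at 732, 408, 393 and 716 CPM against 1993, 1460.1, 1173 and 2926 CPM in other adipocytes of that depth. In members with 6000 UMIs or more it stood at 2256, 2640.2, 1678 and 3381 CPM against 2849.7, 3921, 2179 and 4532 CPM. The members' Gk thus lay nearer to that of the other adipocytes in deep nuclei. Nnat was lower in deep nuclei of both classes, going from 1520.2, 521, 1492 and 479 CPM to 483, 119.96, 414 and 108 CPM in members and from 78.02, 27.1, 152 and 36.9 CPM to 19.9, 11.2, 17.2 and 13.5 CPM in others. Mitochondrial share moved with depth, since members with at most 5% mitochondrial UMIs had medians of 6586, 8703, 7794 and 7485 UMIs. Barcodes with RNA of 2 nuclei were not identified, and their part in these levels was not tested.

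**Figure D4:**
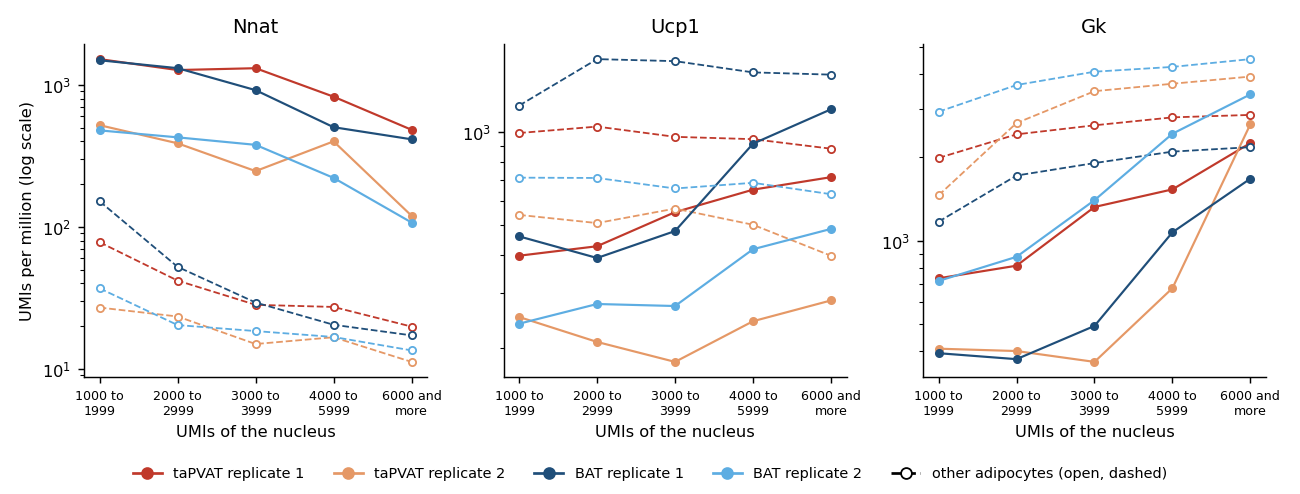
Level of Nnat, Ucp1 and Gk (vertical axes, CPM, log scale) in members (filled, solid) and other adipocytes (open, dashed) by the UMIs of the nucleus (horizontal axis), 1 colour per library. For Ucp1 and Gk the gap between the classes is wider in shallow nuclei than in those with 6000 UMIs or more, while Nnat is higher in members at every depth.

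In nuclei with under 3000 UMIs, a limit set after the data were seen, 353 of the 5979 genes (5.90%) were at least 1.5 times higher in every library and 360 (6.02%) lower. Of the 313 and 101 genes counted in all nuclei, 271 and 100 were among them. Ucp1 was at 417, 217, 409.8 and 264 CPM in these members and 1028, 516, 1612 and 712 CPM in the other adipocytes. The member levels lay below those of other-type nuclei in 4 of 4 libraries, but the other-type nuclei were not held to this limit. No order between members and other types is read from this either. Thermogenic genes at least 1.5 times lower in all libraries numbered 12 of 19, with Prdm16, Esrrg, Esrra, Letmd1, Fabp3 and Ppargc1b added. Acot11 stood at 59.03, 6.42, 35.01 and 25.2 CPM against 365, 152, 362 and 140.4 CPM, and Lep at 153, 391.8, 64.4 and 267 CPM against 7.21, 42.5, 9.47 and 78.6 CPM. The white adipocyte list again had 7 higher and 2 lower genes.

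Among nuclei with at most 5% mitochondrial UMIs, 147 genes were higher and 3 lower, and none of those 3 was among the 101. The 101 genes lay below the other adipocytes there in 101, 98, 100 and 98 cases, by a median of 1.31, 1.39, 1.32 and 1.25 times. The 313 higher genes lay above in 313, 310, 313 and 308 cases, by a median of 2.08, 2.78, 2.00 and 2.03 times. The number of lower genes past 1.5 times thus depended on the nuclei included, while their direction did so in few cases.

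Fat synthesis and immediate early genes differed from library to library. The median log2 ratio of 15 genes of de novo lipogenesis was -0.30 and -0.22 in the replicate 1 libraries and 0.46 and 1.02 in the replicate 2 libraries. Acly, which makes acetyl-CoA for fatty acids, was at 752, 1909, 593 and 1654 CPM in members and 933, 1383, 691 and 579 CPM in others. Srebf1, a transcription factor of this pathway, was higher in all libraries, at 191, 617, 206 and 491 CPM against 85.1, 157, 128 and 194 CPM, while Acacb, an acetyl-CoA carboxylase, was lower in all (-0.76). The medians of 9 immediate early genes were 1.55, 0.16, 0.77 and -0.18. Fos stood at 155, 7.56, 40.4 and 14.6 CPM in members and 18.3, 7.23, 3.61 and 22.01 CPM in others, and was thus above the others by a wide margin in the replicate 1 libraries. Zfp36, which destabilises messenger RNAs, was the 1 gene of the list higher by 1.5 times in all libraries (0.87). What the replicate numbers stand for is not given in the labels, and this contrast was not tested.

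Beyond Tshr itself, few genes of thyroid-stimulating and thyroid hormone signalling differed. Of 20 at 20 CPM, 3 were higher by 1.5 times in all libraries and 1 lower, with a median log2 ratio of -0.03. Adcy5, which makes cyclic AMP, was at 266, 327, 385 and 331 CPM against 63.9, 98.3, 57.5 and 68.7 CPM. Adcy3, another adenylyl cyclase, was at 95.2, 15.9, 50.7 and 10.001 CPM against 166, 42.7, 98.4 and 19.1 CPM, so these cyclases lay in opposite directions. Slc16a10, a transporter of aromatic amino acids and thyroid hormone, and Rxra, a partner of thyroid hormone receptors, had median log2 ratios of 1.23 and 0.77. The thyroid hormone receptors Thra and Thrb had 0.27 and 0.11.

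Few relatives of the other choosing genes were measured well. Of 26 KChIP partner and potassium channel genes 3 reached 20 CPM. Kcnh1 was lower by 1.5 times in all libraries (-0.82), while Kcnd3, a Kv4 channel that KChIPs bind, was at 73.04, 158, 62.7 and 101 CPM against 58.01, 80.9, 36.7 and 45.5 CPM, above the others in each library but not by 1.5 times in all. Of 3 carbonic anhydrases at 20 CPM the mitochondrial Ca5b was higher by 1.5 times in all libraries, at 101, 282, 97.3 and 193 CPM against 21.9, 16.1, 16.4 and 12.8 CPM. Ca4 and Ca8 were lower by any amount in all libraries (-0.77 and -0.70), and the list's median log2 ratio was -0.70. Cxadr, the founding member of the family of Clmp, was the 1 gene among 5 of its list lower by 1.5 times in all libraries, at 8.699 to 14.3 CPM against 18.5 to 28.3 CPM. By any amount 4 of the 5 were lower, with a median log2 ratio of -0.52.

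Marker lists of other cell types are given here by their sums. Both adipocyte classes hold only nuclei without a UMI of the excluding genes. Low sums of endothelial, fibroblast, mural and immune markers therefore follow in part from the rule. Summed over 4 endothelial markers, members held 10.2 to 27.5 CPM, other adipocytes 11.5 to 35.2 CPM and other-type nuclei 785 to 1295 CPM. Members held 90.7 to 124 CPM of 5 fibroblast, 12.9 to 27.5 CPM of 5 mural and 26.8 to 31.2 CPM of 6 immune markers. Other adipocytes held 98.0 to 129, 20.4 to 32.3 and 26.3 to 36.3 CPM of them. In other-type nuclei these lists summed to 308 to 630, 218 to 738 and 432 to 835 CPM, and 4 neuron markers to 8.46 to 42.6 CPM. Ca3 is also a muscle gene and Tshr a thyroid gene. Members held 2.65 to 6.03 CPM of 5 skeletal muscle markers, against 4.67 to 7.45 CPM in other adipocytes. For 4 thyroid follicular markers the sums were 1.42 to 4.92 CPM against 1.79 to 4.83 CPM. The source of Ca3 and Tshr RNA was not tested. Lymphatic markers summed to 0.710 to 8.38 CPM and mesothelial markers to 0.175 to 6.17 CPM, with Krt19 at 0. Of the neuron markers, which summed to 23.0 to 63.3 CPM against 18.1 to 81.5 CPM, the 1 at 20 CPM, Syt1, a synaptic vesicle protein, was at least 1.5 times lower in all libraries, at 47.02, 9.83, 17.6 and 9.47 CPM against 77.5, 37.2, 30.003 and 14.8 CPM. Snap25 was at 5.58 to 16.2 CPM against 1.24 to 3.68 CPM, and Rbfox3 at 0 to 0.351 CPM.

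Members of taPVAT and BAT were compared by their summed counts. By the quasi-likelihood test of edgeR, 0 of 11444 genes (0%) passed an adjusted p of 0.05, and the lowest was 0.750. Without adjustment 223 genes had p under 0.05, and 14 were called by DESeq2. Without BAT replicate 1 edgeR called 7 genes and without BAT replicate 2 it called 17, where the lone BAT library is assumed to vary like the taPVAT ones. It called 102 with a replicate block and 110 without the filter on low counts. Genes to be named were ranked by p among those with at least 20 CPM in 1 tissue and the same direction in both replicate numbers. Of these, Tbx15, a T-box transcription factor, had the smallest p. It was at 7.64, 4.16, 65.7 and 43.3 CPM, a log2 fold change of taPVAT over BAT of -3.15 ± 0.35 (approximate SE, from the test statistic). Foxp2, a forkhead transcription factor, was next among these genes, at 427, 258, 49.7 and 19.3 CPM (3.31 ± 0.49, edgeR adjusted p = 0.942). The tissues overlapped for neither gene in members. They did not overlap in the other adipocytes either, where Tbx15 was at 9.88, 3.39, 52.7 and 19.2 CPM and Foxp2 at 518, 276, 65.5 and 25.4 CPM.

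Other genes stood apart between the tissues without passing edgeR's test without a block. Slit2, a secreted guidance ligand, was at 133 and 229.6 CPM in taPVAT members and 20.4 and 33.7 CPM in BAT members (log2 fold change 2.72 ± 0.43). Slco2b1, an organic anion transporter, was at 64.95 and 60.5 CPM in taPVAT members and 182 and 128 CPM in BAT members (-1.32 ± 0.22), against 8.51 to 14.5 CPM in the other adipocytes. Slc7a10 was likewise lower in taPVAT members (-1.19), as was Kcnc2, a potassium channel (-1.23). Vat1l (1.63), Nfkbiz (1.92) and the glypican Gpc6 (1.07) had higher levels in taPVAT members. The proton-gated channel gene Asic2 (3.46 ± 0.68) and Impdh1, of guanine nucleotide synthesis (-1.30 ± 0.27), did not overlap between the tissues either. The tissues also lay apart in the other adipocytes for Slit2, at 73.2, 58.6, 16.7 and 14.6 CPM, and for Asic2, at 105, 26.96, 2.25 and 2.81 CPM. They lay apart there too for Slco2b1, Slc7a10, Nfkbiz, Vat1l, Kcnc2 and Impdh1. Most of these genes were named for a small p in the same member sums, and both classes come from the same libraries. The share of all genes without overlap between the tissues is not given, so nothing is read from the lack of overlap. The choosing genes, whose counts the rule used, had log2 fold changes from -0.16 (Kcnip1) to 0.62 (Clmp), given as a description, and Ucp1 had -0.56 ± 0.53 with overlapping tissues.

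**Figure D5:**
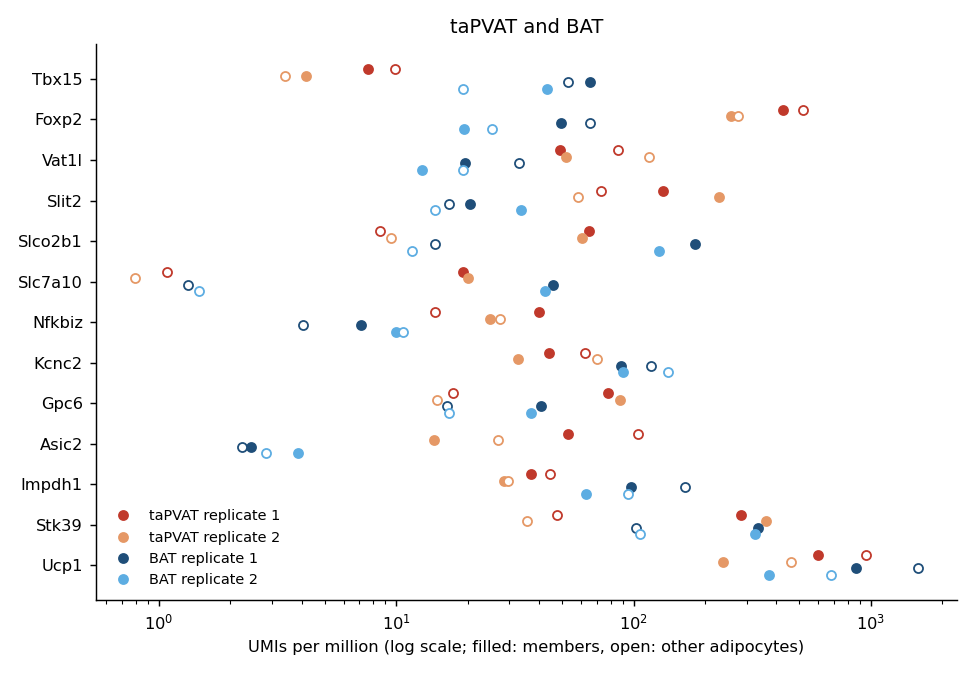
Levels (horizontal axis, CPM, log scale) of 9 of the genes named for the smallest p between the tissues and of Asic2, Impdh1, Stk39 and Ucp1. Members are filled and other adipocytes open, with 1 colour per library. Warm colours (taPVAT) and blue colours (BAT) lie apart for Tbx15, Foxp2 and Slit2 in members, and overlap there for Stk39 and Ucp1.

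Whether a tissue difference in members was unlike that in the other adipocytes was tested by an interaction, with the library as a term. It called 0 of 14702 genes (0%) in edgeR and 1 in DESeq2, and edgeR gave 306 genes a p under 0.05 before adjustment. edgeR called 88 with a replicate block, 33 without the filter on low counts, and 5, 33 and 14 without taPVAT replicate 2, BAT replicate 1 and BAT replicate 2. The smallest edgeR adjusted p was 0.0892, for Enpp3, an ectonucleotidase, at 22.04, 21.6, 6.19 and 11.4 CPM in members and 1.48, 1.63, 2.102 and 4.94 CPM in others. Its interaction was 2.41 ± 0.30 on the log2 scale, with higher levels in taPVAT in members and in BAT in the other adipocytes. Stk39, a kinase that acts on ion cotransporters, was at 283, 363, 336 and 325 CPM in members and 47.5, 35.6, 103 and 106 CPM in others (1.26 ± 0.25, edgeR adjusted p = 0.942). Its levels in the other adipocytes were higher in BAT, whereas the tissues overlapped in members. Cyp2e1 was at 63.8, 104, 28.9 and 32.6 CPM in members and 7.48 to 8.11 CPM in others (1.30 ± 0.25). Cntln, Gpc6, Dclk1, Pim3, Ust and AABR07049064.1 had positive interactions from 0.99 to 1.42, and Spon1, an extracellular matrix protein, a negative one of -1.20.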

How the data were processed

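The deposited matrices hold raw counts of UMIs per gene and barcode from single nuclei, made with Cell Ranger 7.1.0 on the build Rnor_6.0, per the submitters' processing notes. Which annotation was used, and whether intron reads were counted, is not given in the sources used here. Overlapping and antisense genes are therefore uncertain. Per the labels, about 50 mg of tissue went through a nuclei isolation kit and a 3-prime kit. Every deposited barcode holds at least 500 UMIs. Totals per library were 63654436 to 158140959 UMIs, and no mitochondrial limit was applied.

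The members and gene lists were chosen with earlier results of these data known. Counts were summed per library and class, and CPM are UMIs per 1000000 of that sum. Ratios used a pseudocount of 1 CPM and a floor of 20 CPM. Tissue and interaction tests used edgeR 4.0.16 (R 4.3.3; TMM, filterByExpr, quasi-likelihood, Benjamini-Hochberg adjustment, threshold 0.05), tested on simulated data first, with DESeq2 1.42.0 as an alternative. For edgeR log2 fold changes, ± is an approximate SE. It is the absolute fold change on the log2 scale divided by the square root of the quasi-likelihood F statistic. Shares used scipy 1.17.1. Intervals and limits cover counting error only.

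Named genes were the 18 of the rule, the 15 with the highest lowest-library ratio and the 15 with the lowest highest-library ratio, the 10 with the smallest p per test that moved the same way in both replicate numbers, Slit2, Asic2, Impdh1, Stk39 and Ucp1, and 2 to 4 genes per list by level or ratio. Further listed genes named beyond those, and the genes of the shallower nuclei, were chosen after their values were seen. Some genes that the rule names, and 1 marker list of another cell type, are not reported here, and what is said of the marker lists does not extend to that one.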

Additional observations from a re-analysis of the deposited data

How the results depend on the processing

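The difference in share (taPVAT minus BAT) kept its sign under every alternative threshold, mitochondrial limit, thinning and left-out library run. It was -0.95 points with the stricter threshold of 6 UMIs over 4 genes, -6.67 in nuclei with at most 5% mitochondrial UMIs, -0.54 when thinned to 1000 UMIs, and -2.52 to -1.35 without 1 library each. Within depth ranges the order of the tissues varied. In adipocyte nuclei with at least 2000 and under 3000 UMIs the shares were 6.37%, 22.7%, 13.2% and 6.92%. With at least 3000 and under 4000 UMIs they were 4.94%, 10.2%, 7.80% and 6.06%, and with 6000 or more 8.67%, 3.66%, 9.37% and 16.9%. The replicate numbers are not established as pairs: deviations of same-numbered member sums correlated at 0.53 over 11444 genes, with only 2 pairs. Within replicate block number 1 the share difference was -2.99 and within number 2 it was -0.87, and edgeR with a replicate block called 102 genes between the tissues (72 higher in taPVAT) and 88 for the interaction, against 0 without it. Of 19 single genes followed in each test, 12 between the tissues and 11 in the interaction passed with the replicate block, and 6 and 1 with DESeq2. Over all genes, the block called 102 of 11444 and 88 of 14702, and DESeq2 14 of 18933 and 1 of 22601. In each test 10 of the 19 were named for a small p in the same sums, so nothing is read from these counts.

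Calls between the tissues were 14 with DESeq2, 110 without a filter on low counts, and 0 to 17 without 1 library each (7 without BAT replicate 1, 17 without BAT replicate 2). Interaction calls were 1 with DESeq2, 33 without the filter, 1 with the stricter threshold, and 0 to 33 without 1 library each (5 without taPVAT replicate 2, 33 without BAT replicate 1, 14 without BAT replicate 2). The cause was not tested. RLE scaling, equal numbers of nuclei, leaving out the deepest 5% of barcodes and the mitochondrial limit gave 0 in both tests.

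Genes lower in members were 101, and 194 without the deepest 5% of barcodes, 3 with the mitochondrial limit, 360 in nuclei with under 3000 UMIs (added after the data were seen) and 100 to 156 without 1 library each (156 without taPVAT replicate 1). Genes higher were 313, and 147 with the mitochondrial limit, 194 at a floor of 50 CPM, 502 at 5 CPM and 318 to 360 without 1 library each. In nuclei chosen by the other 4 genes, the median log2 ratio was 2.59 for Tshr and 3.91 for Kcnn3 with the mitochondrial limit, and 5.87 for Clmp and 5.48 for Kcnn3 with the stricter choice of 5 UMIs over 3 genes.

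Some log2 fold changes that were not called turned sign. Those of the choosing genes (Tshr, Ca3, Kcnip1, Kcnn3 and Clmp), whose counts the rule used, are descriptions. Between the tissues, Tshr was -0.0072 with DESeq2, -0.015 without the filter, -0.047 with the replicate block, -0.0360 without the deepest 5% of barcodes and -0.63 to 0.44 without 1 library each, and Stk39 was 0.037 with the stricter threshold and -0.25 to 0.13 without 1 library each. Without 1 library each, Ca3 ranged from -0.12 to 0.50, Kcnip1 from -0.46 to 0.087, Kcnn3 from -0.12 to 0.36 and Ucp1 from -1.35 to 0.070. For the interaction, Ucp1 was -0.092 with equal numbers of nuclei, -0.046 with the stricter threshold and -0.096 with the mitochondrial limit, and Kcnn3 was -0.17 with that limit. Without 1 library each, these ranged from -0.14 to 0.23 and from -0.20 to 0.27, Clmp from -0.056 to 0.99 and Kcnip1 from -0.00994 to 1.47. The number of libraries, 2 per tissue, limits both tests.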
